A study of Mus musculus with 34 samples.

Results

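Pklr, Acly, Fasn, Scd2 and Thrsp, genes of the route that turns glucose into fat, were followed in the livers of mice kept at thermoneutral temperature or under chronic heat stress. The members were taken by name: every spot whose gene symbol in the platform annotation was one of these 5, out of 1019 named genes and 1856 features in all. Each of the 5 had 1 spot, and they were chosen with earlier results of these data known. The thermoneutral group (TN) held 7 mice on 20 arrays, which were fed an endophyte-free fescue diet, and the heat stress group (HS) held 6 mice on 14 arrays after 2 weeks of chronic heat. The temperature, 34 °C, is stated for 8 of the HS arrays. An age of 27 days at the start is stated for 7 HS arrays, and 40 days at the end for 5. ICR is named as the strain in the labels of some HS arrays. Nothing used here states the diet of the HS mice, the age, strain or temperature of the TN mice, or which arrays were hybridised together, so that diet, age and batch cannot be told apart from heat. The first letter of the mouse identifier was F for 3 TN and 3 HS mice and M for the others; F222 is labelled female and M233 male, but M242 is labelled female as well.

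Glycolysis ends with pyruvate kinase, and Pklr encodes its form in liver and red cells. Pyruvate enters mitochondria and leaves as citrate, which ATP citrate lyase (Acly) cleaves in the cytosol into acetyl-CoA. Fatty acid synthase (Fasn) builds palmitate from it by way of malonyl-CoA, stearoyl-CoA desaturase (Scd2) puts a double bond into saturated fatty acids, and Thrsp (Spot 14) is a small nuclear protein that promotes lipogenesis. In liver, insulin acts on this route through SREBP-1c and glucose through ChREBP, and feeding raises these messenger RNAs while fasting lowers them. Scd1 is the desaturase best known in adult mouse liver; whether the Scd2 probe, which was designed on rat sequence, told Scd2 from its close relatives is not known.

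The sequences just before the starts of Fasn, Acly and Pklr are shown because Fasn and Acly varied together most closely of the 10 pairs of members and because Pklr carries the letters of a glucose response element. RefSeq's table of gene starts (GRCm38.p6) held 4 of the 5 members, all but Scd2. The 250 bases upstream of each start were searched on both strands for 5 strings of letters, with overlaps allowed. These were CACGTG, the core of an E-box; CACGNNNNNNNNNCGTG, a pair of E-box ends as in elements bound by ChREBP; TCACNCCAC, a sterol response element; CCAAT; and GGGCGG. Among 32851 upstream windows of the same length, 6.02% held CACGTG, 0.219% held CACGNNNNNNNNNCGTG, 1.05% held TCACNCCAC, 33.8% held CCAAT and 32.7% held GGGCGG. Capitals mark the matches on either strand, and the bases run 5′ to 3′ in the direction of the gene. For Fasn the window was chr11:120824548-120824797 (minus strand), for Acly chr11:100528001-100528250 (minus strand) and for the second start of Pklr chr3:89136373-89136622 (plus strand).
Fasn: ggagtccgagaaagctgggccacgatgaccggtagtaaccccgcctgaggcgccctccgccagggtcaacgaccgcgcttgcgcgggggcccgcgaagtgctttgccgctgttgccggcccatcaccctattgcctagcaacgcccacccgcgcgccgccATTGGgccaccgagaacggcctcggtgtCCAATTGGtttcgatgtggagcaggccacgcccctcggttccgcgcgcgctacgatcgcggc
Acly: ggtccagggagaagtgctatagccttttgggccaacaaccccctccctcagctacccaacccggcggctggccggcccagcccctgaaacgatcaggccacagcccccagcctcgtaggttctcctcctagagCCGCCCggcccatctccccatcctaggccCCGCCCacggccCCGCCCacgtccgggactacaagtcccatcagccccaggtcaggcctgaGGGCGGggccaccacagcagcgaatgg
Pklr, second start: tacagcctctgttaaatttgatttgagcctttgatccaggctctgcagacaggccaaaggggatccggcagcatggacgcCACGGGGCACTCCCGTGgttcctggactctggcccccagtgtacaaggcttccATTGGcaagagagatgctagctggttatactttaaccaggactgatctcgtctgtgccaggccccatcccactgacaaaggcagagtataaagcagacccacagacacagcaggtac
Fasn had 3 matches to CCAAT, which began 90, 62 and 59 bases before the start, the last pair overlapping on opposite strands. Acly had 4 matches to GGGCGG, at 117, 88, 76 and 27 bases, and none to CCAAT. The window of Pklr held CACGNNNNNNNNNCGTG once, 170 bases before the start, and 1 match to CCAAT at 117 bases; the window of its first start, at chr3:89135892-89136141, held none of the 5 strings. As background, Pklr has a start used in red cell precursors and, downstream of it, a start used in liver. Thrsp, at chr7:97417551-97417800 on the minus strand, had 2 matches to CCAAT, at 79 and 52 bases. None of the windows held CACGTG or TCACNCCAC. GC content was 69.2% for Fasn, 68.8% for Acly, 53.6% for Thrsp and 54.4% for the second start of Pklr. A match describes letters and not a bound site, and no match says only that these letters are not in the window. The RefSeq span of Fasn reaches further upstream than the start used here.

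Every array paired the liver RNA of 1 mouse with a universal mouse reference RNA, a mixture that lets all mice be set against the same standard. Liver RNA was in Cy5 on 21 arrays and in Cy3 on 13; 12 mice had both dyes, F203 had only a Cy3 array, and the number of arrays per mouse ran from 1 to 4. On arrays with liver in Cy5, 14 to 18 of 18 hepatocyte genes lay above the array median of the deposited ratio, and with liver in Cy3 1 to 4 did, so that the ratio ran as Cy5 over Cy3 throughout. The mean log2 ratio of these hepatocyte genes was 1.77 to 2.33 in TN mice and 1.61 to 2.31 in HS mice. 2 arrays spread most, one of M244 (TN, liver in Cy5) and one of F241 (HS, liver in Cy3), with a median absolute deviation of 2.46 and 1.91 log2 units against a median of 0.98 over arrays and 1.38 for the third widest. All values below are log2 ratios of liver over reference in which 0 is the median of the array, so that 0 does not mean equal amounts and one probe's level cannot be set against another's. In RNA from whole liver, fewer cells of a type and less RNA per cell cannot be told apart.

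Pklr and Thrsp lay above the array median and Scd2 lay below it in both groups, Fasn lay above it in HS, and Acly passed the test in neither. In TN, 367 of 1856 features (19.8%) were above the median and 366 (19.7%) below it at an adjusted p under 0.05; in HS 406 (21.9%) were above and 342 (18.4%) below. All adjusted p-values for levels are from limma with Benjamini-Hochberg adjustment over the 1856 features.

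Pklr ran from 0.22 (M243) through a median of 1.41 to 2.46 (M244) in TN, and from 0.96 (F222) through 1.83 to 4.56 (F203) in HS. The means were 1.41 ± 0.78 (SD, n = 7) and 2.25 ± 1.25 (SD, n = 6), with adjusted p = 0.00063 and 5.3e-06 by limma. F203 stood far above the other HS mice, the next of which was M242 at 2.66. Acly, the source of cytosolic acetyl-CoA, ran from −0.60 (M244) through −0.24 to 1.52 (F236) in TN, and from −0.30 (F222) through 0.58 to 1.07 (F203) in HS. Its means of 0.08 ± 0.74 (SD, n = 7) and 0.50 ± 0.49 (SD, n = 6) did not pass the test (adjusted p = 0.855 and 0.116 by limma). The highest Acly value of all mice belonged to F236, a TN mouse. Acly means turned to −0.33 in TN and −0.17 in HS when only Cy5 arrays were used, and on the Cy3 arrays alone the HS mean was 1.01 and passed the test (adjusted p = 0.0117 by limma). Means on 1 dye alone keep the dye term, the part of a gene's ratio that goes with the dye and not with the mouse. For Acly this term was −0.44, which lowers its Cy5 values and raises its Cy3 values.

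Fasn, which makes palmitate, ran from −0.85 (M244) through 0.27 to 1.39 (F236) in TN, and from −0.17 (M256) through 0.95 to 1.97 (F203) in HS. In HS, 3 mice had values of at most 0.38 (M233, F222 and M256) and 3 had values of at least 1.51 (M242, F203 and F241). Differences between HS mice did not pass the test against repeat arrays for Fasn (F = 3.49, adjusted p = 0.172 by limma). The means were 0.32 ± 0.71 (SD, n = 7) in TN and 0.93 ± 0.95 (SD, n = 6) in HS, with adjusted p = 0.427 and 0.0111 by limma. The TN mean was −0.16 on the Cy3 arrays alone and 0.75 on the Cy5 arrays alone, where it passed the test, and the HS mean of 0.74 on the Cy3 arrays alone did not pass it. These means keep the dye term of Fasn, fitted as 0.34, which raises its Cy5 values and lowers its Cy3 values. Scd2 was below the array median in every mouse, from −2.90 (F235) through −2.26 to −1.81 (F236) in TN and from −2.94 (M256) through −1.54 to −0.96 (F241) in HS. Its means were −2.29 ± 0.36 (SD, n = 7) and −1.69 ± 0.76 (SD, n = 6), with adjusted p = 5.0e-09 and 1.8e-06 by limma. The desaturase thus had the narrowest spread of the 5 among TN mice in the combined values, while its repeat arrays had an SD of 1.00. On the Cy3 arrays alone it was again narrowest (SD 0.66), but on the Cy5 arrays alone Fasn was narrower (SD 0.40 against 0.48). In the combined values Thrsp was above the median in every mouse, from 0.20 (M243) through 0.68 to 1.70 (F236) in TN and from 0.39 (M256) through 1.35 to 2.11 (F241) in HS. Its means were 0.72 ± 0.50 (SD, n = 7) and 1.32 ± 0.76 (SD, n = 6), with adjusted p = 0.0116 and 8.2e-05 by limma. On the Cy3 arrays alone the TN mean of Thrsp, 0.54, did not pass the test. There the TN mice M251, M243, M244 and F235 and the HS mouse M256 read below 0. TN and HS values overlapped for all 5 genes, as they did for every one of the 1856 features (0 without overlap, 0%).

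**Figure D1:**
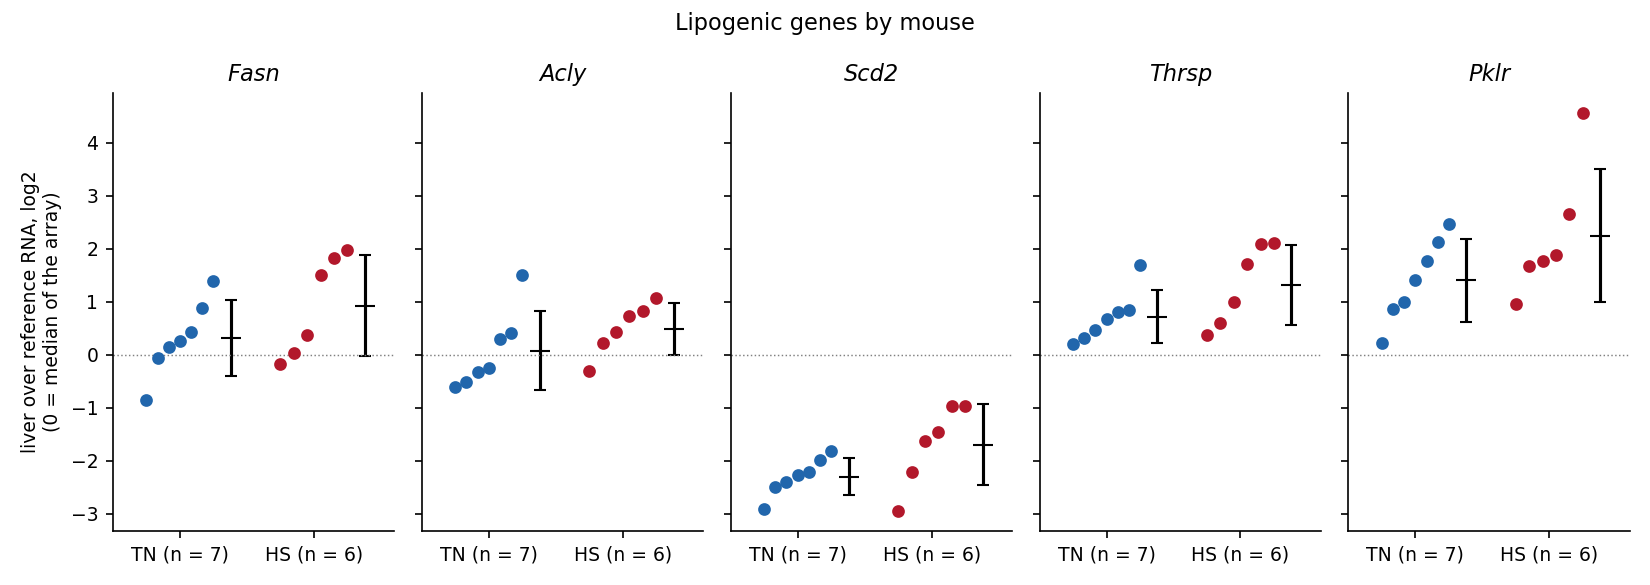
Log2 ratio of liver over reference RNA for Fasn, Acly, Scd2, Thrsp and Pklr, 1 point per mouse, sorted within each group, with the group mean and SD beside it (TN in blue, n = 7; HS in red, n = 6). The dotted line is the array median; the groups overlap in every panel, Scd2 stays below 0 in all mice, and the highest Pklr point is F203 at 4.56.

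The comparison of HS with TN asks whether heat was accompanied by a change in these transcripts. All 5 means were higher in HS, and none of the differences passed the test: the adjusted p was 0.999 for each by limma over 1856 features, of which 0 (0%) were called. Pklr differed by 0.84 log2 units (standard error 0.45, 95% interval −0.09 to 1.78), a factor of 1.80, with 5 of 6 HS mice above the TN mean. Fasn differed by 0.61 (standard error 0.39, interval −0.20 to 1.42), with 4 of 6 above. Scd2 differed by 0.60 (standard error 0.31, interval −0.05 to 1.25), with 5 of 6 above, and 4 HS mice lay above the highest TN mouse. Each of these intervals held 0, and each also held changes larger than 2-fold. For Thrsp the difference was 0.60 (standard error 0.33, interval −0.08 to 1.28), with 4 of 6 above. For Acly it was 0.42 (standard error 0.33, interval −0.27 to 1.10), with 5 of 6 above the TN mean and 0 above the highest TN mouse, F236. The median over the 5 genes was 0.60 against −0.01 over all features, and 48.3% of all features had a difference above 0.

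Without borrowing spread across features, the exact two-sided permutation test over 1716 reassignments of the mice gave p = 0.0921 for Scd2, 0.110 for Thrsp, 0.166 for Pklr, 0.212 for Fasn and 0.261 for Acly, unadjusted. By limma the unadjusted p was 0.0679 for Scd2, 0.0754 for Pklr, 0.0818 for Thrsp, 0.132 for Fasn and 0.220 for Acly. An unadjusted limma p under 0.1 with a higher value in HS was found for 3 of the 5. It was found for 50 of all 1856 features (2.69%), and in either direction for 5.28%. Under 0.05, an unadjusted p was found for none of the 5 and for 45 features in either direction (2.42%). The 5 genes share arrays and were chosen with earlier results of these data known. These shares, and the medians above, are therefore no test of the 5 as a set.

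Single mice and the dye moved these differences. Without F203, which had 1 array, Pklr differed by 0.38 and Fasn by 0.40. Without the TN mouse M244 Fasn differed by 0.40, and without the TN mouse F236 Acly differed by 0.66. With liver in Cy5 alone, which leaves out F203, the differences were 0.13 for Fasn, 0.16 for Acly, 0.17 for Thrsp, 0.33 for Scd2 and 0.34 for Pklr. With liver in Cy3 alone they were 0.56 for Acly, 0.90 for Fasn, 0.91 for Scd2, 1.09 for Pklr and 1.21 for Thrsp. The sign was thus the same on both dyes for each gene, and the size was smaller on the Cy5 arrays. Scaling the arrays to the same spread gave 0.95 for Scd2 and 0.40 for Fasn, and leaving out the 2 arrays of widest spread gave 0.33 for Scd2.

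Differences between mice of the same group were set against the spread between repeat arrays of a mouse. Acly alone of the 5 differed between mice (F = 5.77, adjusted p = 0.0159 by limma over 1846 features, of which 73, or 3.95%, were called). Repeat arrays of Acly had an SD of 0.34 against a median of 0.64 over all features. In F236 its arrays read 0.75 and 1.04 in Cy5 and 2.32 in Cy3, whereas those of M244 read −1.14 and −0.07. Within TN F was 8.32 (adjusted p = 0.0156 by limma, called for 2.06% of features). Within HS, which had fewer arrays, F was 2.72 (adjusted p = 0.270 by limma, called for 1.08%). The groups were not tested against each other. Without F236 F was 2.39 (adjusted p = 0.160 by limma), so that the size of the difference rested largely on that mouse. Without M211 F was 5.63 (adjusted p = 0.0516 by limma), close to the full value, while the features called dropped from 73 to 3.

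Fasn had an F of 2.89 (adjusted p = 0.0944 by limma) and a repeat SD of 0.76. For Pklr F was 1.96 (adjusted p = 0.213), for Scd2 0.98 (0.573) and for Thrsp 0.74 (0.753), with repeat SDs of 1.08, 1.00 and 1.28. The arrays of a mouse thus spread more for these 3 genes than for the typical feature, and their differences between mice did not pass the test against that spread. With the arrays left uncentred Pklr passed the test too, with F = 4.36 and an adjusted p of 0.0135 by limma.

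The same mouse was read on arrays of opposite dye, which share no hybridisation, in 12 mice. Acly repeated across dyes most closely: Pearson r was 0.84 and Spearman rho 0.82 (permutation p = 0.00041 and 0.00152), and r was 0.72 without F236 and M244. Adjusted over all 1846 features the permutation p of this r was 0.0596, and 6 features (0.325%) passed. Fasn followed with r = 0.63 and rho = 0.67 (permutation p = 0.0281 and 0.0202; 0.357 for r after adjustment over all features), and r was 0.71 without M242 and F223. A feature's r had a median of 0.18 and an upper quartile of 0.41 over all features; 0.867% of features exceeded Acly and 7.37% exceeded Fasn. An unadjusted p under 0.05 with r above 0, reached by both of them, was found for 10.6% of features. Pklr had r = 0.21 (rho 0.24, permutation p = 0.508), Scd2 −0.11 (rho 0.03, permutation p = 0.747) and Thrsp −0.30 (rho −0.29, permutation p = 0.352), which 45.4%, 78.4% and 91.3% of features exceeded.

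The values behind these correlations show where the dyes parted. Thrsp was 3.84 in F236, 3.96 in M242 and 4.05 in F241 with liver in Cy3, and all other mice lay between −0.58 and 1.17 there. On the Cy5 arrays the same 3 mice read 0.59, 1.12 and 0.18, inside the range of the others. Their high Thrsp value therefore came from a single array each. Fasn read 2.60 in F236, 2.59 in F241, 1.63 in F203 and 1.26 in M242 in Cy3, and in Cy5, where F203 has no array, F236 read 0.96, F241 1.07 and M242 1.81. M244 was lowest for Fasn on both dyes, at 0.06 and −1.76. Pklr was 4.63 in F203, 4.15 in M242 and 3.54 in F236 in Cy3; in Cy5 the highest mouse was M244 at 3.36. Scd2 was −0.20 in F241 and −0.78 in F222 in Cy3 but −1.73 and −2.76 in Cy5.

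**Figure D2:**
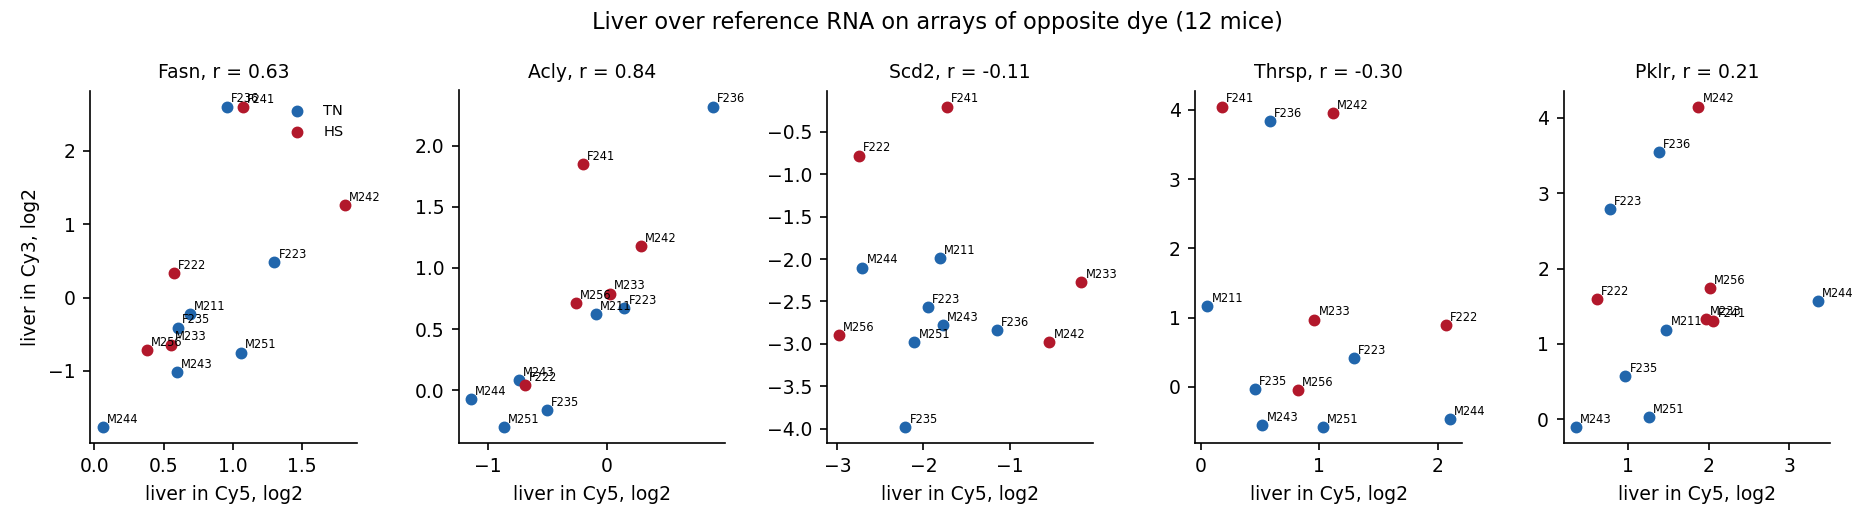
Log2 ratio of liver over reference with liver in Cy5 (horizontal axis, mean of the Cy5 arrays) against liver in Cy3 (vertical axis), 1 point per mouse for the 12 mice with both dyes, TN in blue and HS in red; each panel has its own scale. Acly (r = 0.84) and Fasn (r = 0.63) rise along a line, while in the Thrsp panel (r = −0.30) F236, M242 and F241 stand near 4 on the vertical axis only.

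Across the 13 mice all 10 pairs of the 5 genes correlated positively, with r from 0.18 to 0.80 (median 0.58) and rho from 0.29 to 0.73. Over all pairs of features the median r was 0.04 and the middle 50% lay between −0.39 and 0.43. Of all pairs of features, 10% exceeded 0.66 and 5% exceeded 0.75. Only Fasn and Acly lay above either value. Fasn and Acly were closest: r was 0.80 and rho 0.73 (permutation p = 0.00122 and 0.00643, adjusted over the 10 pairs 0.0122 and 0.0444). The r of this pair was 0.74 without F203 and F241, 0.84 within TN (exact permutation p = 0.0185, n = 7, adjusted 0.184) and 0.78 within HS (exact permutation p = 0.0694, n = 6, adjusted 0.410). It was 0.66 after quantile normalization, with an adjusted permutation p of 0.101. Acly and Scd2 had r = 0.60 and rho = 0.71 (permutation p = 0.0320 and 0.00887, adjusted 0.0700 and 0.0444), so that only the rank correlation passed. For no other pair did r or rho pass the adjustment in these values. This adjustment covered only the 10 pairs, of genes chosen with earlier results of these data known, and not all pairs of features. Scd2 and Thrsp had r = 0.62, Acly and Pklr 0.58, Fasn and Scd2 0.58 and Fasn and Thrsp 0.57, each with an adjusted permutation p of 0.0700. Which pairs passed depended on the setting. Acly and Pklr passed under 4 of 5 others: r was 0.77 on scaled arrays (adjusted permutation p = 0.0273), 0.77 on uncentred arrays (0.00605), 0.71 with plain means of the arrays (0.0245) and 0.76 without the 2 arrays of widest spread (0.0145). Without those 2 arrays Fasn and Thrsp also passed (r = 0.65, adjusted permutation p = 0.0371), as did Fasn and Pklr (0.70, 0.0371), while Fasn and Scd2 dropped to 0.23 and Scd2 and Thrsp to 0.26. On uncentred arrays 9 of 10 pairs passed, and after quantile normalization 0 did. Thrsp and Pklr were the least alike (r = 0.18, adjusted permutation p = 0.576), and without M243 their r was −0.0032. Within TN all 10 pairs were above 0 (median 0.58), and within HS 8 of 10 were (median 0.51). The values over all pairs of features were not computed within a group, so these counts have no background. Thrsp and Pklr had r = 0.73 in TN (exact permutation p = 0.05, adjusted 0.202) and −0.38 in HS (exact permutation p = 0.526). Acly and Thrsp had 0.76 in TN (exact permutation p = 0.0613) and −0.00052 in HS. These differences between groups were not tested.

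Genes read on the same array share that array's error, so each pair was also read across dyes. The first gene came from the Cy5 arrays and the second from the Cy3 arrays of the same 12 mice. The r was averaged with that of the reverse reading. All 10 averages were above 0, with a median of 0.21 (0.33 on scaled arrays and 0.34 without the 2 arrays of widest spread). Over all pairs of features the median was 0.01 and the middle 50% ran from −0.18 to 0.19. Fasn and Acly kept the highest value, 0.58 (permutation p = 0.0170, adjusted over the 10 pairs 0.101), and Acly and Pklr followed at 0.46 (permutation p = 0.0202, adjusted 0.101). Both lay above 0.43, the value that 5% of all pairs of features exceed. The remaining pairs ran from 0.14 to 0.35 and did not pass. Within a dye, the median r was −0.04 with both genes in Cy5 (5 of 10 positive) and 0.58 with both in Cy3 (10 of 10 positive). Genes read in the same dye share the error of their arrays. The values over all pairs of features were not computed within a dye, so these counts have no background. Acly in Cy5 with Thrsp in Cy3 gave 0.73 and the reverse −0.40, the widest gap of the 10 pairs. A reading below 0 was also averaged in for Fasn with Thrsp (−0.33), Pklr (−0.11) and Scd2 (−0.07). The same held for Acly with Scd2 (−0.11). The difference between dyes was not tested. With each group centred on its own mean, the median over the 10 pairs in the combined values was 0.49.

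**Figure D3:**
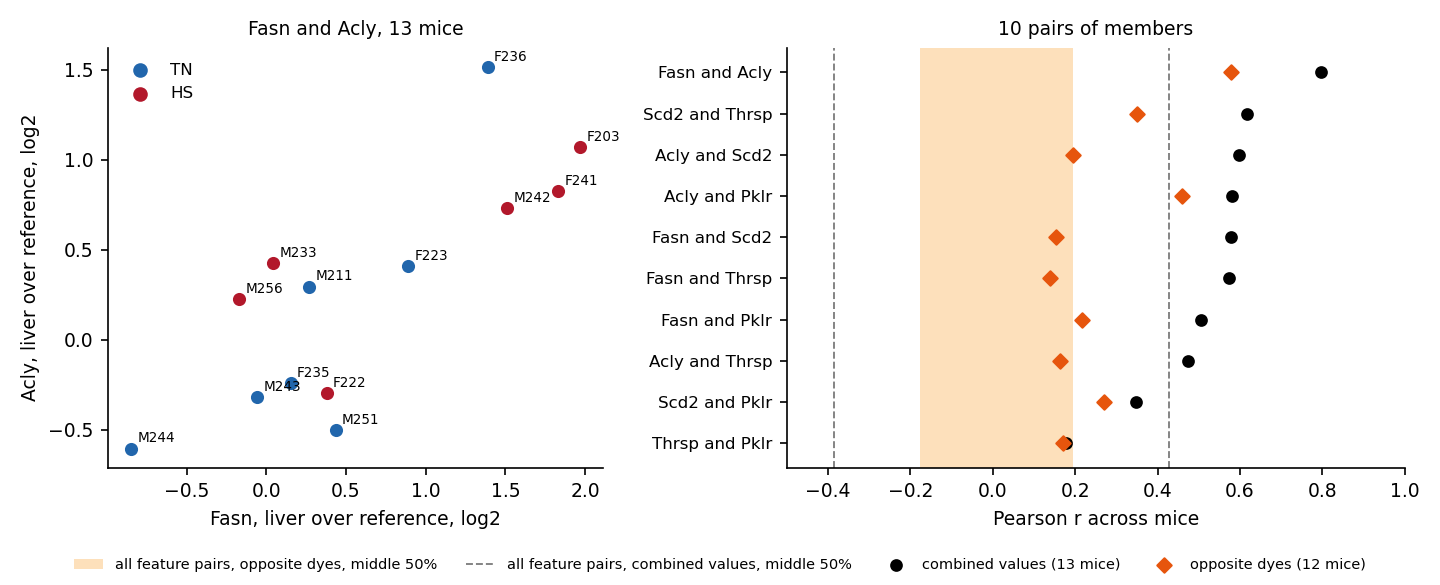
Left, Fasn against Acly, log2 ratio of liver over reference, 1 point per mouse (TN in blue, HS in red). Right, Pearson r of the 10 pairs of members in the combined values of 13 mice (black circles) and across opposite dyes in 12 mice (orange diamonds, average of both readings). Dashed lines (−0.39 and 0.43) and the shaded band (−0.18 to 0.19) hold the middle 50% of all pairs of features. Each diamond lies at or to the left of its circle, and Fasn with Acly is highest on both.

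By mouse, the combined value of each gene was set against the gene's mean over the 13 mice. M242 (HS) and F236 (TN) lay above that mean for 5 of 5 genes, with average deviations of 0.78 and 0.65. F203 and F241 (HS) lay above for 4 of 5, at 0.99 and 0.77; F203 was below for Thrsp and F241 for Pklr. M251, M243 and F235, all TN, lay below for 5 of 5, at −0.51, −0.76 and −0.69. F222 (HS) was above only for Thrsp and M256 (HS) only for Pklr, as was M244 (TN), whose Pklr was the highest of the TN mice and whose Fasn and Acly were the lowest of all mice. High and low mice thus occurred in both groups in the combined values. Not all of these signs repeated on each dye alone. With liver in Cy3, Scd2 was −2.84 in F236 and −2.98 in M242, below the Cy3 means of both groups (−2.75 in TN and −1.84 in HS). With liver in Cy5, Thrsp was 0.59 in F236, below the Cy5 means of both groups (0.86 in TN and 1.03 in HS).

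**Figure D4:**
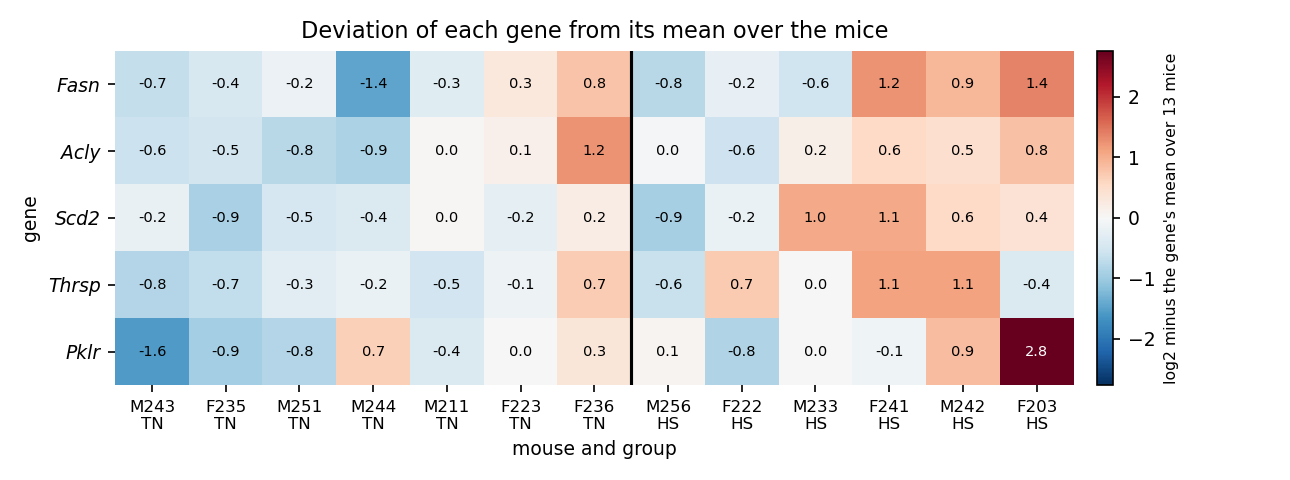
Deviation of each gene (rows) from its mean over 13 mice, in log2 units, by mouse (columns; TN left and HS right of the black line, sorted within a group by the average over the genes). Red is above and blue below the gene's mean. In these combined values F236 and M242 are above for all 5 genes, and M243, F235 and M251 are below for all 5.

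The letter of the mouse identifier was tested in a fit with heat, and the interaction of letter and heat in a separate fit. Fasn was 0.89 higher in F than in M mice (standard error 0.35, unadjusted p = 0.0181, adjusted p = 0.995 by limma; 0.0539% of features were called and 3.77% had an unadjusted p under 0.05). The differences of the other 4 genes ran from 0.06 for Scd2 to 0.48 for Acly, with adjusted p of 0.995 or more by limma. The effect of heat did not differ detectably between letters for any of the 5, nor for any feature (0 called, 0%; 1.19% at an unadjusted p under 0.05). The dye term, which is removed from the values per mouse, was −0.44 for Acly (adjusted p = 0.000303 by limma; 25.4% of features were called) and 0.34 for Fasn (adjusted p = 0.0575), and it did not pass for Scd2 (0.31), Thrsp (−0.10) or Pklr (−0.07).

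Other genes of the pathways were taken from lists, of which 0 of the measured genes passed the test for HS against TN in either direction (background 0%). Of 34 symbols for fatty acid and triglyceride synthesis 8 were measured, 4 of them the members Fasn, Acly, Scd2 and Thrsp. Of the others, the acyl-CoA synthetase Acsl5 differed by 0.39 (standard error 0.33), while Acsl1, which also activates fatty acids, differed by −0.26 (0.34) and the citrate carrier Slc25a1, which brings citrate to Acly, by −0.26 (0.36). Gpd1, which makes glycerol 3-phosphate, differed by 0.00 (0.29). The list's positive values were thus those of the 4 members, Acsl5 and Gpd1, and its median was 0.41. Acsl5 also resembled the members across the 13 mice, with r = 0.74 to their average, against −0.48 for Slc25a1, 0.01 for Acsl1 and −0.01 for Gpd1. This was not particular to the list: Lss of cholesterol synthesis had 0.74 and Gckr of the glycolysis list 0.73. All these values share arrays with the members, and the median over other named genes was 0.29.

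In glycolysis 10 of 27 symbols were measured, with a median difference of −0.06 and 3 above 0. These were Pklr, the glucokinase regulator Gckr at 0.84 (standard error 0.34, unadjusted p = 0.0233, adjusted 0.999 by limma) and ketohexokinase Khk at 0.44 (0.27), which starts the use of fructose. The other 7 enzymes had values of −0.02 for Ldha, −0.03 for Eno1, −0.09 for Pgam1 and Pfkm, −0.14 for Pfkl, −0.26 for Pgk1 and −0.56 for Tpi1. No test set these apart from Pklr. For NADPH supply 2 of 11 symbols were measured, transketolase Tkt at 0.14 and isocitrate dehydrogenase Idh1 at −0.25.

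**Figure D5:**
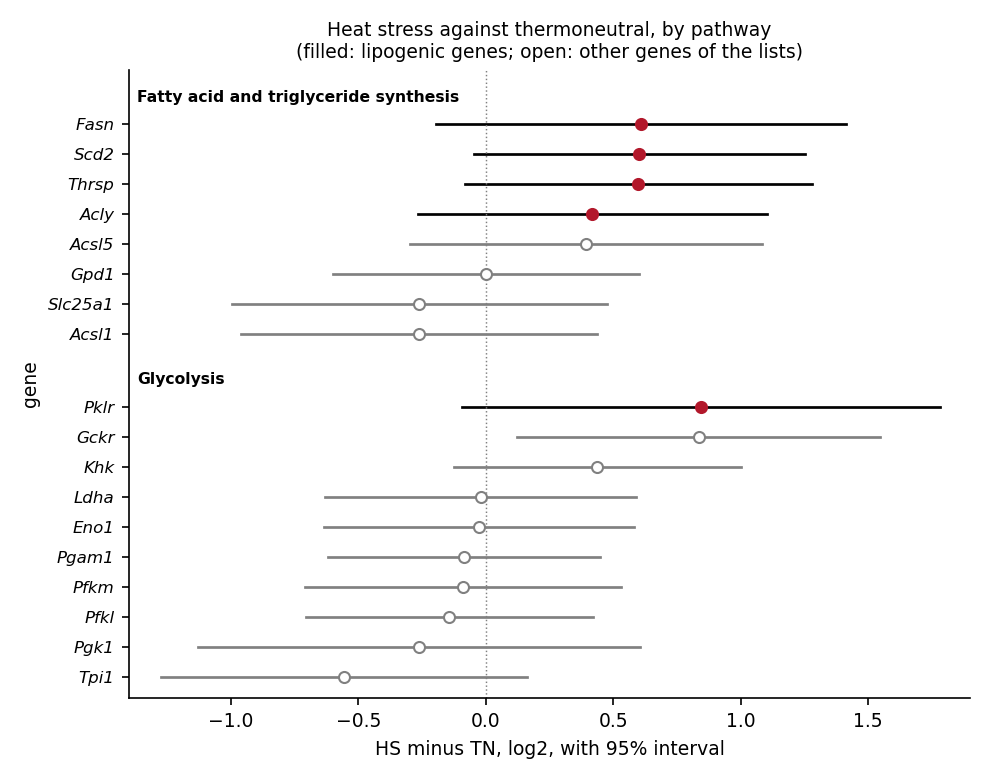
HS minus TN in log2 units with the 95% interval for the measured genes of the lists for fatty acid and triglyceride synthesis (top) and glycolysis (bottom); filled points are the members, open points the other genes. All 5 members lie to the right of 0 with intervals that include it; the interval of Gckr alone does not include 0, before adjustment.

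The other 5 lists had medians from 0.03 to 0.27. In gluconeogenesis and glycogen 6 of 8 measured genes were above 0, with pyruvate carboxylase Pc at 0.54 (standard error 0.24) and glycogen synthase Gys2 at 0.46 (0.29). The p of Pc was 0.0385 unadjusted and 0.999 adjusted by limma. For cholesterol synthesis and uptake 7 of 10 were above 0, with Msmo1 at 0.59 (0.31) and Idi1 at −0.33 (0.26). For fatty acid oxidation and ketone synthesis it was 11 of 20, with Ehhadh at 0.41 (0.26) and Cyp4a3 at 0.47 (0.33). Lipid transport and lipoproteins had 6 of 12 above 0, with apolipoprotein Apoa1 at −0.93 (0.41) and fatty acid binding protein Fabp1 at −0.70 (0.56). The p of Apoa1 was 0.0328 unadjusted and 0.999 adjusted by limma. Among regulators of lipogenesis 6 of 30 symbols were measured and 4 were above 0, with the nuclear receptors Nr5a2 at −0.65 (0.34) and Ppara at 0.22 (0.32).

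Likeness to the 5 genes was measured as the Pearson r of each of 1014 other named genes with the average of the members, each centred on its mean, over 13 mice. All points share arrays with the members, and the median r was 0.29, with 791 genes above 0. The highest were the copper chaperone Ccs (0.85), argininosuccinate lyase Asl of the urea cycle (0.82), the casein kinase subunit Csnk2a1 (0.81), Pcyt2 of phosphatidylethanolamine synthesis (0.81) and sulfite oxidase Suox (0.79). Most negative were phosphoglucomutase Pgm1 (−0.71), the stress-induced factor Ddit3 (−0.70) and the small GTPase Arf5 (−0.68). With the gene read in Cy5 and the members in Cy3, the r of the 5 most alike genes fell in the range from 0.06 (Pcyt2) to 0.19 (Asl), and in the reverse reading from 0.37 (Csnk2a1) to 0.64 (Asl). For the most negative genes, r with the gene in Cy5 was 0.23 for Pgm1, −0.19 for Ddit3 and 0.13 for Arf5. With the gene in Cy3 it was −0.45, −0.25 and −0.40, so that Pgm1 and Arf5 changed sign. Each gene's own r between dyes was −0.50 for Pgm1, −0.10 for Ddit3 and −0.39 for Arf5. For the 5 most alike genes it ran from −0.21 (Csnk2a1) to 0.35 (Asl). The average of the members itself correlated between dyes at 0.62.

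Markers of other cells could be read only in part. Of 12 fat cell symbols 1 was measured, Cfd, which ran from −0.14 to 0.68 in TN and from −0.98 to 1.19 in HS and had r = 0.01 with the average of the members. Of 10 Kupffer cell and macrophage symbols 3 were measured, with a mean from −1.07 to 0.11 in TN and −0.45 to 0.19 in HS (r = 0.52). The pancreas marker Prss1, 1 of 7 symbols, ran from −0.20 to 0.64 in TN and −0.25 to 0.80 in HS (r = 0.43). Haemoglobin Hba-a1, 1 of 4 red cell symbols, ran from 0.15 to 1.79 in TN and 0.47 to 2.67 in HS, differed by 0.39 (standard error 0.34, adjusted p = 0.999 by limma) and had r = 0.73 with the average of the members. None of the 5 bile duct or 6 stellate cell symbols was measured. The part of blood or of other cells in the variation between mice was not tested.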

How the data were processed

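Liver RNA of 13 mice was hybridised with universal mouse reference RNA on 34 in-house arrays of oligonucleotides designed on rat sequence, with indirect amino-allyl labelling, per the labels' protocols and series text. The authors deposited log ratios of Cy5 over Cy3, taken here as log2; log base, background correction, normalization and spot filters were not given in the sources used here. If they are natural logarithms, every size is on that scale. Dim spots were not filtered, since no intensities were used. Of 1920 spots 1083 had 1 gene symbol; spots of a gene were averaged, giving 1856 features, with 11 values missing.

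Each array was centred on its median. Per feature, least squares with 13 mouse terms (sign by dye) and 1 dye term gave 1 ratio per mouse; F203 rests on 1 array. HS against TN, levels and letter were tested with limma 3.58.1 (R 4.3.3) on features with at least 4 mice per group, and mice within groups with limma's F test over arrays. The threshold was an adjusted p of 0.05 (Benjamini-Hochberg, all features). Correlations across mice used 100000 permutations (exact within groups; Python 3.11.15, numpy 2.4.6), adjusted over the 10 pairs or, between dyes, over all features. Fits were tested on simulated data. The 5 members were named whatever their values; each list names its 2 genes of smallest p, and the lipogenic and glycolytic lists all genes. The members and lists were chosen with earlier results of these data known. Alternatives changed centring, scaling, dyes, arrays, mice and model terms, 1 at a time. Promoter sequences come from RefSeq (GRCm38.p6).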

Additional observations from a re-analysis of the deposited data

Results flagged for a closer look

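The highest or lowest mouse of a group was compared with the rest for each gene in the combined values and in each dye, 30 sets in all, and 4 stood apart by Dixon's ratio; chance flags about 1 in 20. With liver in Cy3, F236 was highest of the TN mice for Acly at 2.32 and for Thrsp at 3.84. With liver in Cy5, M244 was highest of the TN mice for Pklr at 3.36, on the array of widest spread, and F222 was lowest of the HS mice for Pklr at 0.61. F236 was also high for Acly in Cy5 (0.90), but not for Thrsp (0.59); M244 read 1.57 for Pklr in Cy3.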

How the results depend on the processing

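The differences between HS and TN kept their sign and stayed past no threshold for all 5 genes under the 12 other settings and without each of the 13 mice, and 0 features were called under each. Between mice within groups, leaving out a mouse gave an F of 2.39 to 7.76 for Acly, 0 to 1 members called and 3 (without M211) to 228 (without F241) features called. Uncentred arrays gave 2 members (Acly and Pklr, F = 4.36) and 224 features, arrays scaled to the same spread 6 features, and arrays without the 2 of widest spread 41. The mean level in TN was 0.75 (Cy5 alone) or −0.16 (Cy3 alone) for Fasn, −0.33 (Cy5 alone) for Acly and 0.54 (Cy3 alone) for Thrsp; in HS it was 0.74 (Cy3 alone) for Fasn and −0.17 (Cy5 alone) or 1.01 (Cy3 alone) for Acly. Means on 1 dye alone keep the gene's dye term (−0.44 for Acly and 0.34 for Fasn), which the combined values remove. Other causes were not tested.

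For agreement between dyes the alternatives were chosen after seeing the data. The r between dyes was 0.56 for Acly on uncentred arrays, 0.15 (scaled) or 0.0014 (quantile) for Scd2, and 0.020 for Thrsp without the 2 widest arrays. Leaving out a mouse gave 0.53 to 0.69 for Fasn and −0.21 to 0.072 for Scd2. Across dyes Fasn and Acly had r = 0.63 on scaled arrays, which passed (adjusted permutation p = 0.0202), and 0.40 on uncentred arrays, which did not (0.336). Leaving out each of M233, M244 and F203 in turn brought 1 or 2 further pairs past the threshold in the combined values. Among the pairs in the combined values, Thrsp and Pklr ran from −0.0032 (without M243) to 0.50 (without F203). No paired analysis was possible because the mouse identifiers are not shared between TN and HS. Signal over background is unknown, and the number of mice and arrays limits the precision.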
